A study of Mus musculus with 8 samples.

Results

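The regions described here are peaks called for the chromatin remodeler Chd8 in 1 library, which lie between genes and touch no called Chd7 peak. They are the peaks of the Chd8 library that touched no peak of either Chd7 library and none of either mock, whose midpoint fell outside every protein-coding gene of RefSeq, and whose whole span lay more than 1 kb from every boundary of a protein-coding, lncRNA or tRNA gene (mm10). Of 18415 Chd8 peaks, 18350 touched no mock peak, 11853 of these touched no Chd7 peak, 4206 of these had their midpoint outside protein-coding genes, and 2220 met the whole rule, which is 12.1% of the list. Membership therefore rests on where peaks were called in 5 libraries and on gene positions, and neither the lack of Chd7 nor the distance of 1 kb is a result.

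The libraries were made by chromatin immunoprecipitation and sequencing (ChIP-seq) from wild-type mouse cells, taken at postnatal day 7 and positive for O4. They were purified on magnetic columns from cortex and corpus callosum, and the sample labels call them oligodendrocyte precursor cells (OPCs). All samples share this genotype, age and untreated state. The groups are Chd8 ChIP (1 library, anti-Chd8), Chd7 ChIP (2 libraries, anti-Chd7), mock ChIP with rabbit IgG (2 libraries, of which 1 served both Chd7 replicate 2 and Chd8) and input chromatin (3 libraries, input 3 being the one paired with Chd8 by the titles). The labels do not say how many animals or litters went into a library. O4 is a surface antigen of late precursors and young oligodendrocytes, so the sorted cells span more than 1 stage. The extraction notes name an O4 antibody where the sample labels name anti-Chd7, anti-Chd8 or IgG, and the labels were followed. Inside the files the Chd8 track carries the number 2 and the track of Chd7 replicate 2 the number 3, so inputs 2 and 3 may have to be exchanged, and results on overlap are given for each input.

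Chd8 belongs to the CHD family of remodelers, enzymes with paired chromodomains that use ATP to move nucleosomes. Chd7, its close relative, is best known for binding enhancers, whereas Chd8 is best known for binding promoters of active genes. In the oligodendrocyte lineage both have been studied as regulators of the transcription factors that drive precursors to differentiate. Sites far from promoters can hold enhancers, start sites of noncoding RNAs and microRNA (miRNA) genes, and the last of these are shown first because they can be read letter by letter.

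A total of 9 Chd8-only peaks between genes overlapped a miRNA gene, 0.405% of the set (95% exact interval 0.186 to 0.768), where the share over all Chd8 peaks was 0.266%. Intervals here and below are Clopper-Pearson intervals over peaks, which cover counting error only, since there is a single Chd8 library. No peak among the 946 Chd8 peaks between genes that touched Chd7 overlapped a miRNA gene, a count of 0 that allows a share of up to 0.317% (3 counts) or, by the exact interval, 0.389%. Both limits lie above the lower end of the members' interval, so a difference between these sets was not detectable, and the members' interval also includes the share over all Chd8 peaks. Of the peaks of input 3 that meet the same rule of position, 7 of 45190 did (0.0155%, 0.00623 to 0.0319). The 9 peaks covered 12 annotated miRNA genes, of which 11 had mature sequences in the RefSeq table of GRCm38.p6, the assembly that mm10 names. A miRNA gene lay within 1 kb of 19 members (0.856%, 0.516 to 1.33), against 0.423% of Chd7-touching peaks (0.115 to 1.08), 0.0664% of input 3 peaks between genes and 0.646% of all Chd8 peaks. Within 5 kb the share was 1.76% for members and 1.75% for all Chd8 peaks, and the members' intervals included the share of all Chd8 peaks at both distances. Of the 9 peaks over a miRNA gene, 5 covered miR-9, miR-124, miR-132 and miR-212 or miR-137 genes, known from neural cells and chosen for display after the overlaps were seen. Mature strands of these with a sequence in the table follow, except miR-137-5p, miR-132-5p and miR-212-5p, which are not shown. The seed (bases 2 to 8, the part that pairs with target messages) is in capitals, so that shared seeds can be seen.
miR-9-5p: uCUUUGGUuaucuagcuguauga
miR-9-3p: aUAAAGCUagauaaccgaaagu
miR-9b-5p: uUCGGUUAucuagcuuuauga
miR-9b-3p: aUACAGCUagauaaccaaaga
miR-137-3p: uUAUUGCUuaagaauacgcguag
miR-132-3p: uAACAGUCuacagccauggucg
miR-212-3p: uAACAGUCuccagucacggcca

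miR-9 is made from 3 genes in the mouse and is abundant in neural progenitors and neurons. The peak over Mir9-2, at chr13:83737617-83739379, was the longest of all 2220 at 1763 bp and held the whole gene (chr13:83738814-83738885). Its Chd8 fold, the authors' enrichment of the peak over the caller's local background, was 4.30, it touched no input peak, and a Chd7 peak lay 50 bp away. The peak over Mir9-3 at chr7:79505323-79505612 had a fold of 4.64, covered 31 of the 90 bases of the gene (chr7:79505264-79505353) and also touched no input peak. Opposite each of these genes the annotation places a miR-9b gene on the other strand, Gm51268 and Gm51285, and the 2 strands share the same peaks. Mir9-1, the third copy, was not overlapped but lay 92 bp from a peak at chr3:88215086-88215506, with a fold of 4.01, that covered Mir3093 and touched a peak of every input. Each miR-9 gene had a Chd8-only peak on it or within 100 bp, and at Mir9-1 the inputs had one as well.

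A single peak at chr11:75173084-75173818, between Hic1 and Ovca2, covered both Mir212 (chr11:75173388-75173478) and Mir132 (chr11:75173682-75173747), and both are on the plus strand, as are the 3 genes of miR-9. Their main products share the seed AACAGUC, as the lines above show, and in neurons the pair is known to be induced by activity. This peak had a fold of 3.97 and touched an input 3 peak with a fold of 3.36, and no peak of inputs 1 and 2. Mir137, which encodes a brain-enriched miRNA (chr3:118433857-118433929, plus strand), lay whole inside chr3:118433561-118434001 with a fold of 3.84 and no input peak. Mir124a-1, from a family typical of neurons, had 79 of its 85 bases inside chr14:64590663-64590942, with a fold of 3.85 and no input peak. Of the other copies of that family, Mir124a-2 lay 1178 bp from a Chd8-only peak, and the Chd8 peak closest to Mir124a-3 was 26175 bp away. The remaining miRNA genes were Mir1897, inside the lncRNA gene Sox2ot (fold 4.04), Mir5103 (4.56) and Mir7671 (4.68), whose peak touched all 3 inputs. Copies of the families were looked up after the overlaps had been seen. Of these 9 folds, 5 lay below 4.15, the median of the whole set, and the highest was 4.68.

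Most members were weak and narrow, close to the lower limit of what the authors' caller kept. Their median fold was 4.15 (order-statistic interval 4.13 to 4.17), against 4.81 (4.72 to 4.88) for the 946 Chd8 peaks between genes that touched Chd7, 4.16 (4.14 to 4.18) for 3873 Chd8-only peaks inside gene bodies and 4.47 for all Chd8 peaks. Their median width was 259.5 bp (246 to 269), against 485 bp (459 to 510), 272 bp (265 to 278) and 382 bp for the same sets. The lowest fold in the Chd8 list, 3.81, was the value of 428 members (19.3%, 17.7 to 21.0), against 36 of the Chd7-touching peaks (3.81%, 2.68 to 5.23). A fold of at least 5 was reached by 226 members (10.2%, 8.95 to 11.5), against 403 Chd7-touching peaks (42.6%, 39.4 to 45.8). A −log10 q of at least 5, the caller's own adjusted significance, was reached by 40 members (1.80%) and by 152 Chd7-touching peaks (16.1%). The sets were defined by Chd7 calls, so these levels are a description with no test. In fold and width, Chd8-only peaks between genes nearly matched those inside genes.

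The members nearest to the limits of the rule show how it divides neighbours. A peak between Ggnbp1 and Itpr3 was kept although a Chd7 replicate 2 peak lay 1 bp away, with a fold of 4.39. Another between Otol1 and Sis was 3 bp from a Chd7 replicate 2 peak (fold 4.17). On the other side, a peak between Ociad2 and Cwh43 was left out by an overlap of 8 bp with Chd7 replicate 1 (fold 4.14). In all, 110 members (4.95%, 4.09 to 5.94) lay within 1 kb of a Chd7 peak, and the median distance to one was 51786 bp. These values were not compared with other sets of Chd8 peaks. For the limit of 1 kb, the 5 members just inside stood 1002 to 1012 bp from a gene boundary with folds of 3.81 to 5.23, among them 1 between Gsx1 and Pdx1. The 5 peaks just outside stood 990 to 1000 bp away with folds of 4.07 to 4.67, among them 1 between Fgf8 and Npm3. Values on the 2 sides of each limit overlapped.

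Input chromatin, which the rule did not use, was called at few of these positions. A peak of any input was touched by 380 members (17.1%, 15.6 to 18.7), where the share over all Chd8 peaks was 46.4%. The share was 26.7% (23.9 to 29.7) for Chd7-touching peaks between genes and 24.4% (23.1 to 25.8) for Chd8-only peaks inside gene bodies, and neither interval overlaps that of the members. By library, 89 members touched input 1 (4.01%, 3.23 to 4.91), 71 touched input 2 (3.20%, 2.51 to 4.02) and 333 touched input 3 (15.0%, 13.5 to 16.6), while over all Chd8 peaks the shares were 17.1%, 18.1% and 40.5%. Without input 3, the share touching either of the other inputs was 5.77%. A total of 294 members touched 1 input, 59 touched 2 and 27 touched all 3. Input 3 had the fewest peaks of the inputs, 91628 against 109486 and 178478 for inputs 1 and 2, yet it was touched most often in every set of Chd8 peaks.

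**Figure D1:**
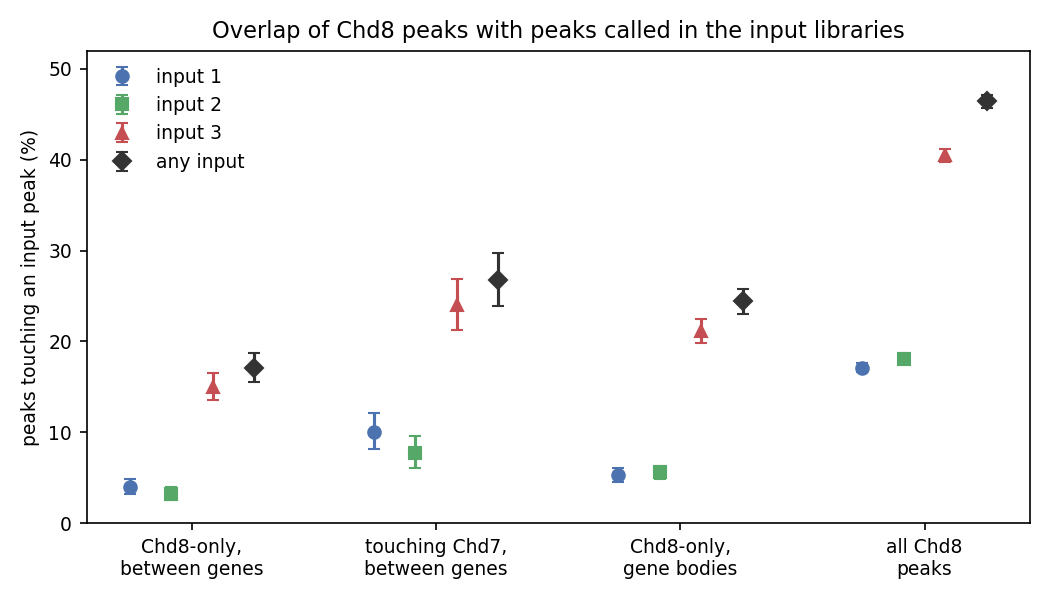
Percent of peaks touching a peak of input 1, 2, 3 or any of them (y axis) for 2220 Chd8-only peaks between genes, 946 peaks between genes touching Chd7, 3873 Chd8-only peaks in gene bodies and all 18415 Chd8 peaks. Symbols are shares and bars 95% exact intervals over peaks; the Chd8-only peaks between genes have the lowest share for each input, from 3.20% to 15.0%.

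Wider peaks touched inputs more often, so the sets were also compared within ranges of width set by the 25th, 50th and 75th percentile of the members. The members' shares touching any input were 12.1%, 13.2%, 16.9% and 26.4% from the narrowest range (99 to 165 bp) to the widest (385 bp and more), against 17.8%, 19.9%, 23.4% and 34.7% for Chd8-only peaks inside gene bodies. All 4 of those differences had intervals that did not overlap. Chd7-touching peaks between genes had 29.2%, 18%, 28.4% and 27.5%, and in the second and the widest range their intervals overlapped those of the members. At like widths, members thus touched inputs less often than gene-body peaks in all 4 ranges and less often than Chd7-touching peaks in the first and the third. Among the members themselves, those touching an input were wider (median 326.5 bp, 307 to 355) than those touching none (245 bp, 239 to 257) and had a slightly higher fold (4.24, 4.17 to 4.30, against 4.14, 4.11 to 4.16). Their median distance to a protein-coding gene was 16516 bp, against 35413.5 bp for members that touched no input. Where members touched input 3, the median fold of the input's own peak was 3.56, against 3.50 over its whole list.

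Although they lie between genes, the members were closer to protein-coding genes than input peaks in the same kind of place. The median distance to the nearest protein-coding gene boundary was 31.9 kb for members, against 36.6 kb for Chd7-touching peaks between genes and 80.9 kb for input 3. A boundary lay within 50 kb of 1354 members (61.0%, 58.9 to 63.0), of 547 Chd7-touching peaks (57.8%, 54.6 to 61.0) and of 41.7% of input 3 peaks between genes (41.3 to 42.2), while inputs 1 and 2 had 34.0% and 36.5%. In the nearest range, from 1 to 5 kb, stood 358 members (16.1%, 14.6 to 17.7), 12.9% of Chd7-touching peaks (10.8 to 15.2) and 8.59% of input 3 peaks. More than 500 kb away stood 40 members (1.80%, 1.29 to 2.45), 3.38% of Chd7-touching peaks and 14.9% of input 3 peaks. The limit of 1 kb was the same for each set. The distance profile of the members was thus shifted toward genes relative to input and overlapped that of Chd7-touching peaks. Among members that touched no input the share within 50 kb was 57.9%, still above input 3.

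**Figure D2:**
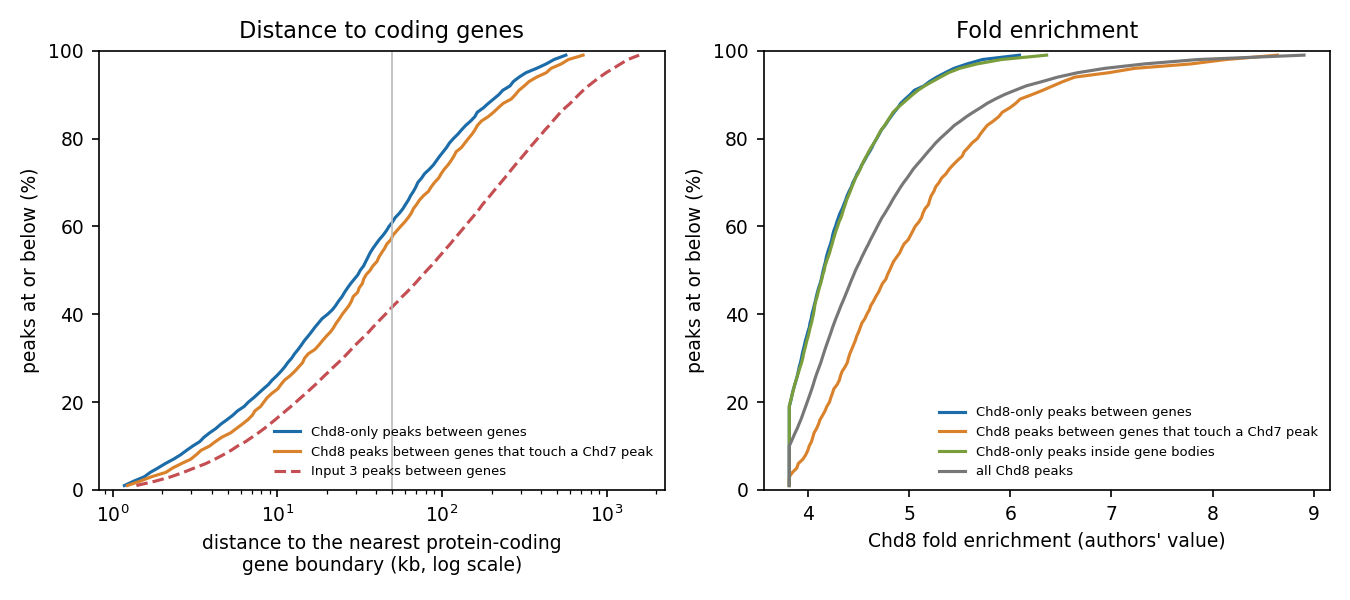
Left, cumulative percent of peaks (y axis) by distance to the nearest protein-coding gene boundary in kb (x axis, log scale) for Chd8-only peaks between genes, Chd7-touching peaks between genes and input 3 peaks between genes, with a line at 50 kb; the first 2 curves run together, left of input 3. Right, cumulative percent by Chd8 fold for 4 sets of Chd8 peaks; both Chd8-only sets coincide, with medians of 4.15 and 4.16.

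Genes for long noncoding RNAs (lncRNAs) were the annotation that members overlapped most. The rule removes peaks near lncRNA boundaries but not those inside a lncRNA gene. A lncRNA gene body was overlapped by 416 members (18.7%, 17.1 to 20.4), where the share over all Chd8 peaks was 14.2%. It was 20.8% (18.3 to 23.6) for Chd7-touching peaks between genes, which overlaps the members' interval, and 9.73% (9.46 to 10.01) for input 3 peaks between genes. Members in lncRNA genes had a median fold of 4.13 (4.08 to 4.18), against 4.16 (4.13 to 4.18) for those outside, and 14.2% of them touched an input, against 17.8%. They were spread over 329 lncRNA genes, of which 273 held 1 member and 8 held 5 or more.

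The lncRNA genes with the most members were Sox2ot and Firre with 9 each. Sox2ot surrounds the gene for Sox2, a transcription factor of neural progenitors. Its 9 members had folds of 3.81 to 5.62, 8 of them touched no input, and 1 more Chd8 peak in the gene touched Chd7. Firre is an X-linked lncRNA gene with repeated stretches in its transcript and a known role in nuclear organisation. Its 9 members had folds of 4.04 to 5.21, and none of them touched an input. No input 3 peak between genes and no Chd7-touching Chd8 peak fell in Firre. Next came Mir9-3hg, the host gene of miR-9, with 8 members, C130071C03Rik, over Mir9-2, with 6, and Gm3764, over Mir9-1, with 5. The other genes with 5 were A930011G23Rik, Gm32008 and Gm46091, the last of them beside Pou3f3. All 3 genes that hold a copy of miR-9 were therefore among the 8.

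Of the members, 6 overlapped a window of the RefSeq promoter table, which runs from 250 bases before a gene's start to 50 after it. Each of these windows belonged to a start inside a lncRNA gene. The rule leaves out windows of protein-coding genes and those at the outer ends of lncRNA genes, so this is not a result. The count of 6 was not compared with other sets of Chd8 peaks. The whole window fell within the member for C130071C03Rik and Gm6145, with folds of 4.83 and 4.49 and no input peak. That of C130071C03Rik, at a start inside the gene, lay in the member at chr13:83732096-83733294. It is printed because it is the promoter sequence under the group of peaks at Mir9-2, with each CG pair in capitals (chr13:83732243-83732542, plus strand).
C130071C03Rik start: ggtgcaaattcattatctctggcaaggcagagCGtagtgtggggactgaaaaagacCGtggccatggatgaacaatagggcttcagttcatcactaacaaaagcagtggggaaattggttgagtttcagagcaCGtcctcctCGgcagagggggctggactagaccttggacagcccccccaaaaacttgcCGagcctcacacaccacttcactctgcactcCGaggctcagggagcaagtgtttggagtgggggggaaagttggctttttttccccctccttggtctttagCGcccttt

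This window held 7 CG pairs and 53.3% G and C, against medians of 7 and 52.7% over the 32851 windows of the table. It held no TATAAA on its own strand (8.32% of all windows do) and no GGGCGG on either strand (35.7% do). The other windows overlapped were those of 1500009C09Rik, where the member shared only the last 35 bases of the window, Gm34684, 9430078K24Rik and C330002G04Rik, and none of the 6 members touched an input.

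Some members stood near one another. Another Chd8 peak of any kind lay within 5 kb of 553 members (24.9%, 23.1 to 26.8). Neither this share nor the grouping below was compared with other sets of Chd8 peaks, so neither is shown to be particular to members. Joining members within 10 kb of each other gave 163 groups with 397 members (17.9%), of which 132 were pairs and 8 had 5 members or more. Without the members that touched an input, 113 groups with 270 members (14.7%) were left, 5 of them with 5 or more. Of all 2220 members, 1823 stood alone.

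The densest group, 12 members over 34.7 kb at chr15:85652656-85687404, lay between Wnt7b, which encodes a Wnt ligand, and Ppara, a nuclear receptor of lipid metabolism. Its members had folds of 3.81 to 5.34 and widths of 102 to 881 bp. Of these 12, 10 touched no input, and 1 other Chd8 peak inside the span touched Chd7 replicate 2. The second group, 9 members over 23.3 kb at chr13:83716068-83739379, lay between Mef2c, a transcription factor gene, and Tmem161b. All 9 fell inside the lncRNA genes Gm52046 and C130071C03Rik, with folds of 3.81 to 5.20, and 8 of the 9 touched no input. A Chd8 peak inside the span that is not a member, with a fold of 5.25, touched Chd7 replicate 2. The group ended with the long peak over Mir9-2.

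The third group, 8 members over 26.2 kb at chr3:88215086-88241256, lay between Mef2d and Rhbg, an ammonium transporter gene. It included the peak beside Mir9-1, folds ran from 3.92 to 5.27, and 5 of the 8 touched no input. A Chd8 peak of 2137 bp in its midst, with a fold of 5.61, touched both Chd7 libraries. Firre and the region between Polg and Rhcg followed with 7 members each. The first had folds of 4.04 to 5.21 and no input peak in its span. The second, with folds of 3.81 to 5.16, held Mir9-3, and 4 of its 7 members touched no input. Further groups of at least 5 stood around Skida1 (6), in Sox2ot (5) and around Pou3f3 (5). Groups beyond the densest 3 are named after their values were seen. Hence 3 of the 5 densest groups held or adjoined a miR-9 gene.

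**Figure D3:**
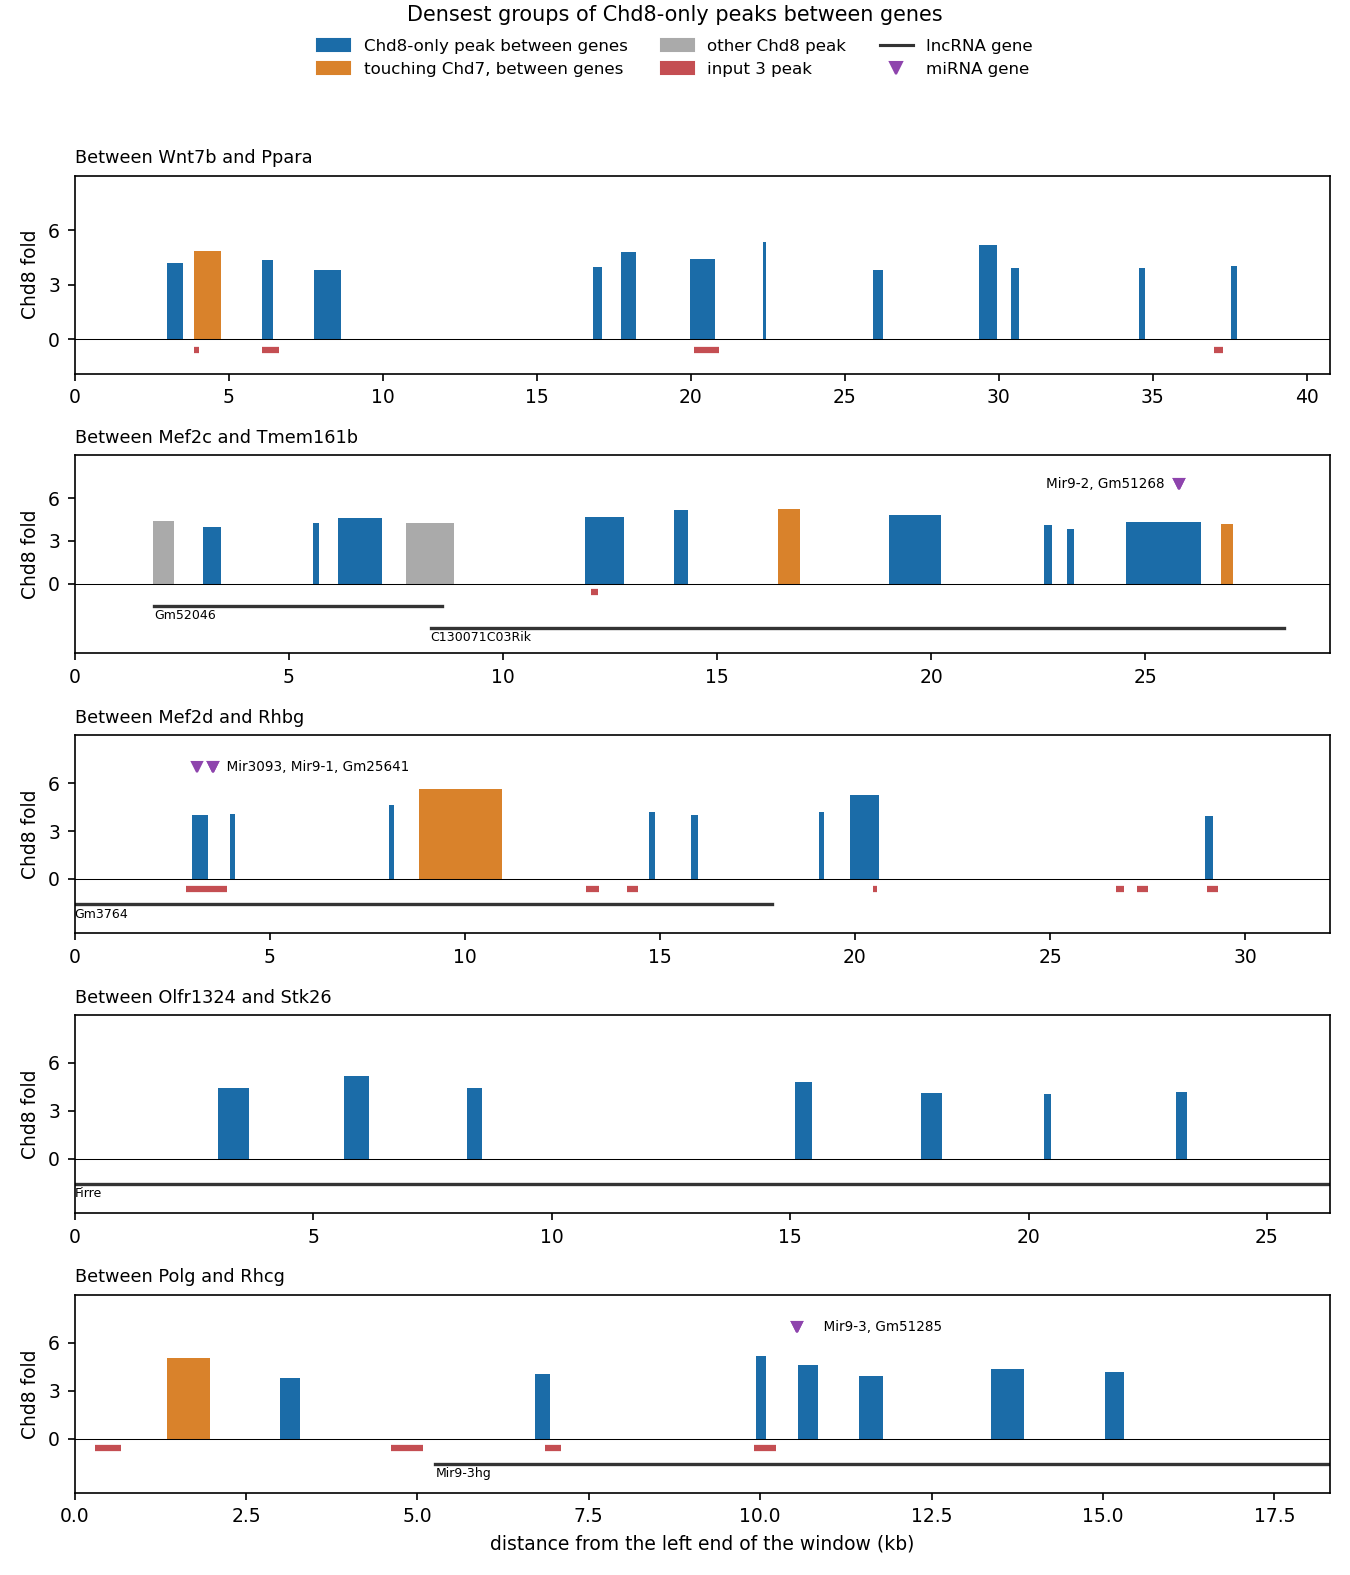
Maps of the 5 densest groups with 12, 9, 8, 7 and 7 members. The x axis is distance in kb from the left end of each window, the y axis the Chd8 fold (bar width is peak width), with members, Chd7-touching and other Chd8 peaks in different colours; input 3 peaks, lncRNA genes and miRNA genes are marked, and the Firre panel shows no input 3 peak.

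Counted by nearest protein-coding gene, members fell to 1614 of 21887 genes, of which 1269 were nearest to a single member and 26 to 5 or more. Sox2 had the most with 15, of which 14 touched no input, at 3992 to 499900 bp from the gene and with folds of 3.81 to 5.62. Mef2c had 12 (11 without input) and Pou3f3, which encodes a POU-domain transcription factor of neural development, had 12 (10 without input). Chd7-touching peaks between genes with Sox2, Mef2c and Pou3f3 as nearest gene numbered 6, 3 and 3. Counts by nearest gene were not scaled by the space around each gene. Ppara followed with 10, and Olfr1324, Polg, Rps24 and Tmem161b with 9 each. All 9 of Olfr1324, an olfactory receptor gene, are the Firre peaks. Rhbg and Zfp970 had 8 each. Zfp970 belongs to an array of zinc finger genes on chromosome 2, and 7 of its 8 members touched an input, while at each of the other 9 genes most members touched none. The median fold of its members was 3.81. Input 3 peaks between genes with it as nearest gene numbered 33, against 41 for Mef2c and 34 for Tmem161b.

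**Figure D4:**
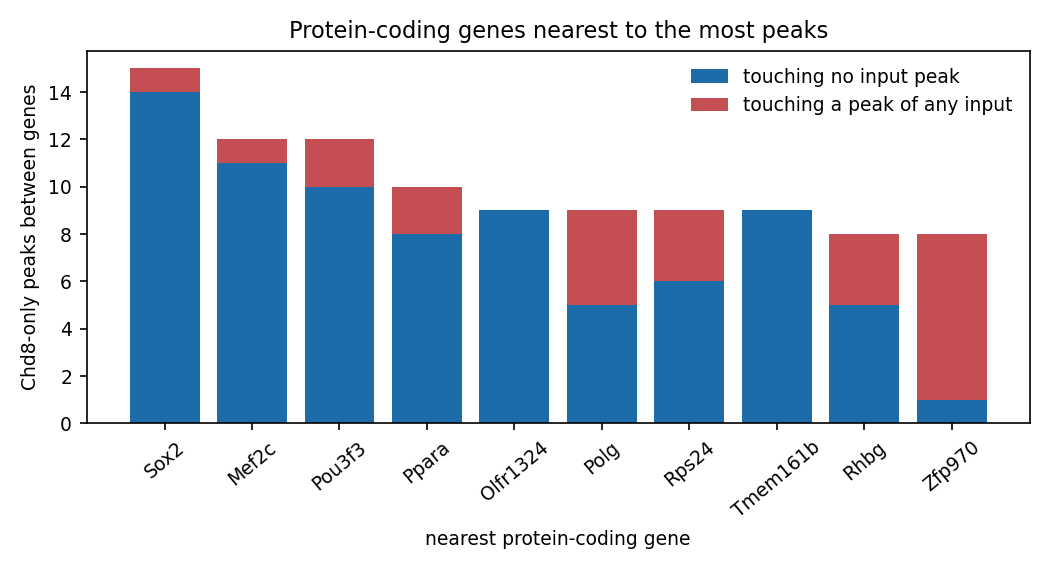
Number of Chd8-only peaks between genes (y axis) for the 10 protein-coding genes nearest to the most of them (x axis), split into peaks touching no input and peaks touching any. Sox2 leads with 15, and Zfp970 alone has most of its 8 peaks in input.

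Beyond the first 10, genes were named after their values were seen. Mycn, a transcription factor gene of neural progenitors, had 6 members, none of them touching an input. It was also nearest to 1 Chd7-touching peak between genes. The gene Chd7 itself was nearest to 6 members, at 7993 to 70433 bp, with folds of 3.81 to 4.26, no input contact, and no Chd7-touching Chd8 peak between genes had it as nearest gene. Zfp462 and Zfp608 had 6 each, beside 5 and 8 Chd7-touching peaks.

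The 10 strongest members had folds of 6.71 to 9.04. The highest fold, 9.04 (−log10 q 12.5), was at chr8:20424144-20425013 over the pseudogenes 2610005L07Rik and Gm20584, where input 3 also had a peak with a fold of 6.58. The next, 7.67 at chr15:6988167-6988595, stood between Osmr and Lifr, which encode receptors of interleukin 6 family cytokines, 102.0 kb from Lifr, and touched no input. The third, 7.39, covered the transcribed pseudogene Fbxl12os and touched inputs 1 and 3, with folds of 3.59 and 3.31. Apart from the first and the third, none of the 10 strongest touched an input.

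Others of the 10 stood between Tbc1d21 and Insyn1 (7.25), Sox14 and Il20rb (7.04), and Iqgap3 and Mef2d (7.03, 3.03 kb from Mef2d). The last 3 stood between Ncam1, a neural cell adhesion gene, and Plet1 (6.82), Nectin1 and Thy1 (6.78), and Pdgfra and Kit (6.71). The last, at chr5:75336194-75337058, was 138.0 kb from Pdgfra, the platelet-derived growth factor receptor that marks OPCs, and 9768 bp from the closest Chd7 peak. Peaks between Ang2 and Ear14 (6.67) and between Klrb1 and Klrb1c (6.65) completed the 10 highest without input contact. After the peak over Mir9-2, the longest members stood between Creb3l1 and Phf21a (1697 bp, fold 4.26, touching all 3 inputs) and between Ndfip2 and Spry2 (1573 bp, fold 5.37, no input).

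Genes that mark OPCs were nearest to 13 members, 0.586% (0.312 to 0.999), against 19 of 946 Chd7-touching peaks between genes (2.01%, 1.21 to 3.12) and 0.239% of input 3 peaks between genes (0.196 to 0.288). For this list and those below, shares over all Chd8 peaks were not counted. Input 3 peaks between genes lay farther from protein-coding genes in general (median 80.9 kb, against 31.9 kb for members), and the part of this in the shares was not tested. The OPC list held 26 genes, of which 6 had a member. Olig2, the lineage factor of oligodendrocytes, had 5, with folds of 3.90 to 5.46, and 2 of these touched input 3. The highest of them, at chr16:91192597-91192886, was 32.7 kb from Olig2 and 147 bp from a Chd7 peak. Olig1, the neighbour of Olig2, had 1 (fold 4.17, touching input 3). Sox11 had 2 (4.53 and 4.07), and Hes5, a Notch effector, 1 (4.19). Pdgfra had the peak of 6.71 given above. Genes of maturing oligodendrocytes had 2 members for 23 genes (0.0901%, 0.0109 to 0.325). This stood against 5 Chd7-touching peaks (0.529%, 0.172 to 1.23) and 0.111% of input 3 peaks (0.0821 to 0.146). Of these 2 members, 1 lay 5281 bp from Mog, a myelin protein gene (fold 4.50, touching input 3). The other lay 9155 bp from Ugt8a, which makes the myelin lipid galactosylceramide (fold 4.50, no input).

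Genes on the lists for other cell types were also nearest to members, and whether each gene is particular to its cell type was not tested. Astrocyte genes were nearest to 15 members (0.676%, 0.379 to 1.11), against 3 Chd7-touching peaks (0.317%, 0.0654 to 0.924) and 0.197% of input 3 peaks (0.158 to 0.242). They belonged to 8 of 14 genes, and 8 of the 15 lay within 50 kb of the gene. The highest stood 33.7 kb from Nfia (5.58), a transcription factor gene, and 104.5 kb from Slc1a3 (4.81), a glutamate transporter gene. Neuron genes had 5 members on 4 of 20 genes (0.225%, 0.0732 to 0.525), against 0.211% of Chd7-touching peaks and 0.139% of input 3 peaks (0.107 to 0.178). The highest stood 89.6 kb from Dlx2 (4.20) and 110.9 kb from Bcl11b (3.95), and 2 of the 5 lay within 50 kb of the gene. Microglia genes had 4 (0.180%, 0.0491 to 0.461), against 0.106% of Chd7-touching peaks and 0.0398% of input 3 peaks (0.0236 to 0.0629). All had Sall1, a transcription factor gene, as nearest gene. The highest, of 5.30 and 4.34, stood 28.7 and 14.6 kb from Sall1, and the others 565.1 and 264.2 kb. Endothelial and mural genes had 3 (0.135%, 0.0279 to 0.394), against no Chd7-touching peak and 0.0797% of input 3 peaks (0.0558 to 0.110). The highest stood 45.4 kb from Foxc1 (3.95) and 24.4 kb from Cdh5 (3.93). For oligodendrocyte, neuron, microglia, endothelial and mural genes the members' interval overlapped that of input 3. Intervals of members and Chd7-touching peaks were apart for the OPC list and overlapped for the other 5. Lists differ in gene number and in the space around their genes, whose part was not tested, and a peak near a marker gene does not show in which sorted cells it lay.

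Annotated genes of other kinds lay under 57 members (2.57%), where the share over all Chd8 peaks was 1.36%. Pseudogenes accounted for 37 of them (1.67%, 1.18 to 2.29), where the share over all Chd8 peaks was 0.684%. It was 2.43% (1.55 to 3.63) for Chd7-touching peaks between genes, 0.310% (0.160 to 0.541) for Chd8-only peaks inside gene bodies and 1.53% (1.42 to 1.64) for input 3 peaks between genes. The members' share was thus close to that of input in the same kind of place. Of the 10 highest of the 57, 6 touched an input, among them 6820431F20Rik (5.36), Gm20257 (5.71), Pisd-ps2 (5.04) and Gm40190 (5.70). Those without input contact were a peak in Tcra over the segment Trav3-3 (6.36), Gm6831 (5.61), Zfp389 (5.35) and BC025920 (5.02). Near-identical copies elsewhere in the genome can exchange reads with pseudogenes, so these folds are uncertain.

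Members were found on every autosome and were sparse on the sex chromosomes. Per Mb of the space the rule allows, the autosomes held 1.61 members, from 1.17 on chromosome 5 to 2.14 on chromosome 11, against 0.378 on X (45 members) and 0.0115 on Y (1 member). Input 3 peaks between genes were also sparser on X, 15.0 per Mb against 24.8 to 39.2 on the autosomes. The 45 members on X were 14.2% of the 318 Chd8 peaks there, and the 1 on Y was 4.55% of 22. Over the whole Chd8 list, members were 12.1%. Relative to all Chd8 peaks, members were thus not fewer on X. Of the 45 members on X, 9 lay in Firre. The labels do not give the sex of the animals, and the part of X copy number in these densities was not tested.

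**Figure D5:**
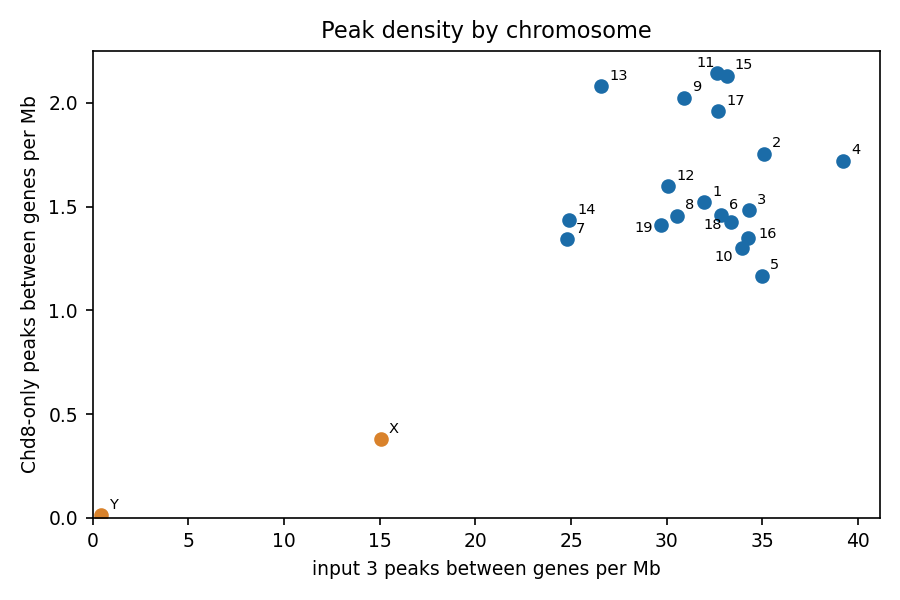
Density of Chd8-only peaks between genes (y axis, per Mb of space the rule allows) against that of input 3 peaks between genes (x axis, per Mb), 1 point per chromosome with X and Y in orange. Autosomes lie between 1.17 and 2.14 members per Mb, X and Y at 0.378 and 0.0115.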

How the data were processed

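The data are broad peak lists of mm10, 1 for each of 8 libraries. Per the submitters' processing notes, the tools were Bowtie2, SAMtools, Picard and MACS; their versions and parameters, and which control each list was called against, are not stated there. The deposited column 5 holds the authors' score per peak. The fold of a peak over the caller's local background is a ratio computed by the authors, and the deposited −log10 p and −log10 q are theirs too. The lists hold no read counts, so depth is unknown, and precision is set by the number of peaks. Folds were used only to describe and rank peaks within the Chd8 list, or as given for an input peak.

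Coordinates were made 1-based. Peaks touched when they shared at least 1 bp. Genes came from RefSeq of GRCm38.p6 (21887 protein-coding and 12727 lncRNA genes), whose table gives boundaries. Distances run from a peak's edge to the nearest boundary. Space between genes is the part of a chromosome where the rule of position can be met, and input peaks between genes met that same rule. With 1 Chd8 library there is no replicate error and no test. Shares have 95% Clopper-Pearson intervals, and medians have order-statistic intervals. The members, the gene lists and the rule of naming were chosen with earlier results of these data known. Named were the 10 highest members, the 10 highest without input contact, the 3 longest, the 10 genes nearest to the most members, the 3 densest groups, the highest members per list (10 for OPC and oligodendrocyte genes, 2 for others), the 10 highest over other genes, and the 5 on either side of 1 kb. A few of these are not reported here. Alternatives were a −log10 q or a fold of at least 5, removal of input-touching peaks, no sex chromosomes, a limit of 5 kb, exclusion within 1 kb of Chd7, and leaving out each Chd7, mock or input library. The steps for overlap, position inside genes and distance to boundaries were checked on simulated intervals, and the whole rule was not. Python 3.11.15, pandas 2.3.3, NumPy 2.4.6, SciPy 1.17.1 and matplotlib 3.10.9 were used.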

Additional observations from a re-analysis of the deposited data

How the results depend on the processing

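Of 87 values recomputed under 15 settings, 58 stayed within 1.5 times the number of members or within the interval of the reported share or median, and 29 did not; none has a test. The measurement of the 1 kb limit from the midpoint was chosen after seeing the data and moved none. A −log10 q of at least 5 left 40 members, with input 3 at 20%, any input at 22.5%, median fold 6.32, median width 484.5 bp, 57.5% within 50 kb of a protein-coding gene and 12.5% in lncRNA genes. A fold of at least 5 left 226, with 18.6%, 20.8%, 5.35, 355.5 bp and 15.5% (lncRNA). Removing peaks that touch input 3 set that share to 0% and gave 2.49% for any input and 58.4% within 50 kb. Removing peaks that touch any input set both shares to 0% and gave a width of 245 bp and 57.9% within 50 kb. A limit of 5 kb gave 13.2%, 14.96%, 52.7% within 50 kb and 12.9% in lncRNA genes, which follows in part from leaving out the peaks at 1 to 5 kb. Leaving out a Chd7 or mock library gave 2220 to 2876 members, 14.5% to 17.2% touching input 3, median folds of 4.15 to 4.24, widths of 259.5 to 291 bp, 59.2% to 61.6% within 50 kb and 18.7% to 19.3% in lncRNA genes; the upper number came without Chd7 replicate 1. Leaving out any 1 library, inputs included, gave 5.77% to 19.6% touching any input; the lowest came without input 3, which thus carries most of that share. Other causes were not tested. No paired analysis was possible because the results come from no test and Chd8 has 1 library. Depth is unknown, so a Chd7 or input peak missed at low depth cannot be told apart from an absent one.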
